A study of Mus musculus with 8 samples.

Results

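The genes described here are 33 transcripts of the integrated stress response, known as targets or partners of the transcription factor Atf4, out of 49315 gene identifiers measured by RNA sequencing. They were chosen by name with earlier results of these data known, so counts of them against all genes are descriptive. By role they were 7 transcription factors, 5 stress effectors and feedback regulators, and 3 genes for secreted factors and a lipoprotein receptor. The rest were 9 enzymes grouped as amino acid synthesis, 4 amino acid transporters and 5 cytosolic tRNA synthetases. The enzyme group includes the folate enzyme Mthfd2 and Pck2, which do not themselves make an amino acid. The samples were the mouse pancreatic ductal adenocarcinoma lines 6694c2, 6419c5, 2838c3 and 6499c4, each sequenced once as the wild type (WT) and once as a C1galt1c1-KO culture (KO), labelled Tn. C1galt1c1, also called Cosmc, encodes the chaperone of the core 1 O-glycan synthase, so its loss leaves proteins with the short Tn glycan, which these data do not measure. All cultures were grown in high-glucose DMEM with 10% fetal bovine serum, streptomycin and penicillin, and the labels name no treatment, no transgene and no number of clones behind a KO culture. From published work on these tumour clones, and not from the labels, 6694c2 and 6419c5 are known as T-cell-poor and 2838c3 and 6499c4 as T-cell-rich. The KO minus WT difference was compared between these pairs. That choice of pairs was also made with earlier results of these data known, so p-values for the pairs are not those of a blind plan. The comparison asks whether a cell line that lost core 1 O-glycans carries more or less stress response mRNA than its parent, and whether the lines do so alike.

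In the integrated stress response, kinases that sense amino acid shortage, misfolded protein in the endoplasmic reticulum (ER), double-stranded RNA or low heme phosphorylate the initiation factor eIF2. General translation then slows, while the Atf4 mRNA is translated more, because short upstream reading frames in it no longer capture the ribosomes. Atf4 protein pairs with C/EBP factors and activates genes that import and make amino acids and charge tRNAs, and, when stress lasts, genes such as Ddit3 (CHOP), Trib3 and Chac1 that are tied to cell death. Pancreatic tumour cells are known to use this pathway when amino acids or oxygen run short.

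Several of these genes carry in their promoters the C/EBP-ATF response element, a composite of an ATF and a C/EBP site that Atf4 binds. The 250 bases before each gene's start (canonical transcript of GENCODE vM39, GRCm39, the same assembly as mm39) were searched on both strands for TGATGNAA, which reads TTNCATCA on the other strand. The motif was present in 8 of 33 member promoters (24.2%), against 231 of 11380 promoters of protein-coding genes tested (2.03%), and 2 members held it more than once (6.06%, against 0.0439% of all). These shares are descriptive, since the members were picked as known Atf4 genes, and a gene without the letters in this window is only without them there. The stretches below show each match in capitals on the strand of the gene, in the order transcription factors, effector, enzymes, transporter, synthetase and receptor.
Atf3, chr1:190915607-190915666, minus strand: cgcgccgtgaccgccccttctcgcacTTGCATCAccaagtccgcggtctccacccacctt
Ddit3, chr10:127126335-127126394, plus strand: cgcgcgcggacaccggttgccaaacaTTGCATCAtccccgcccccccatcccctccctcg
Chac1, chr2:119181504-119181563, plus strand: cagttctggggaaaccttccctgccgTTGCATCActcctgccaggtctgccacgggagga
Pck2, chr14:55777594-55777653, plus strand: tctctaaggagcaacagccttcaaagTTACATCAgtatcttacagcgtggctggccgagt
Gpt2, chr8:86218813-86218872, plus strand: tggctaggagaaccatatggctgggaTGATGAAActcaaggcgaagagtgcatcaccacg
Slc7a11, chr3:50398095-50398154, minus strand: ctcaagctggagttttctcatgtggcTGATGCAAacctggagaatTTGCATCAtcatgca
Aars1, chr8:111760336-111760395, plus strand: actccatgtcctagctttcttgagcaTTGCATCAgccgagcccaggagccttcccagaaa
Vldlr, chr19:27194194-27194253, plus strand: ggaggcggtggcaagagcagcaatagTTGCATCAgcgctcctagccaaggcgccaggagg
In Slc7a11 both copies lie within 65 bases of the start and face opposite ways, and Aars1 holds another match, TTTCATCA, 25 to 18 bases before its start. Of these 8 genes, 7 had more mRNA in the KO than in the WT library of both 6694c2 and 6419c5, as given below, while Vldlr, with the same TTGCATCA as Atf3, Ddit3 and Chac1, had less in both. Of all 33 members, 31 were higher in the KO library in 6694c2 and 31 in 6419c5, so the genes with the motif did not stand out in direction.

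The deposited values are TPM, transcript shares per gene length, which keep no sequencing depth, so counting error cannot be stated. Identifiers without a gene name held 12.5% and 9.69% of the TPM in the KO libraries of 6694c2 and 6419c5, against 0.713% to 1.33% in the other 6 libraries. The same pair of KO libraries held 275 and 371 scaled TPM of the structural RNA Rmrp, against 1.72 to 8.22 in the others. Another structural RNA, Rpph1, stood at 326 and 126 scaled TPM in this pair, against 1.47 to 26.3 in the others. With the unnamed identifiers and the small structural RNA classes left out and the TPM rescaled, the count of genes called in 6694c2 and 6419c5 by the limma test below was 3 in place of 19, and that of members 1 in place of 3. That setting tested 12632 genes in place of 12900, so the genes left out could not be counted. The log2 differences of Trib3, Asns and Atf5 were 2.85, 1.89 and 1.81 there, against 2.87, 1.91 and 1.84. To keep unnamed and structural RNA from lowering the shares of other genes, each library was divided by a median-ratio factor (0.866 to 1.10), and all levels below are such scaled TPM. After scaling, the median KO minus WT difference of the 12900 genes tested lay between -0.03 and 0.01 on the log2 scale in each line. C1galt1c1 itself stood at 36.5, 34.4, 37.8 and 52.5 scaled TPM in the WT and 12.6, 16.3, 15.2 and 20.2 in the KO libraries of 6694c2, 6419c5, 2838c3 and 6499c4. Ductal epithelial markers summed to between 12470 and 24800 scaled TPM in every library, and immune markers to at most 28.4, mostly Cd68. Fibroblast markers summed to at most 7.36. Acinar and islet markers summed to at most 44.2, nearly all of it Cela1, with Cpa1, Ins1, Ins2 and Gcg at 0. Each line gave 1 library per genotype, and the series counts the 4 lines as the replicates. The limma p-values below thus weigh the mean KO minus WT difference against its spread between lines, taken within the pairs where pairs were fitted. The spread between libraries of the same line and genotype is not known.

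More mRNA in the KO than in the WT library was found for 31 of the 33 genes in 6694c2 (background 46.9% of all genes tested), 31 in 6419c5 (background 48.8%), 13 in 2838c3 (background 49.6%) and 20 in 6499c4 (background 51.5%). In such bulk samples, more RNA per cell and more cells that hold the RNA cannot be told apart. A difference of at least 2-fold, 1 on the log2(scaled TPM + 1) scale, was found for 27 genes in 6694c2 (background 2.64%) and for 21 in 6419c5 (background 1.91%), all of them higher in the KO, and 19 genes passed 2-fold in both (background 0.698%). By the same measure 0 were 2-fold lower in either line (background 3.7% and 1.52%). In 2838c3 the number was 3 higher (background 5.73%) and 4 lower (background 6.46%), and in 6499c4 it was 0 either way (background 1.19% higher and 1.29% lower). The median KO minus WT difference of the 33 genes, in log2(scaled TPM + 1), was 1.46 in 6694c2, 1.19 in 6419c5, -0.28 in 2838c3 and 0.06 in 6499c4. Higher in the KO library of all 4 lines were 10 genes (background 6.07%), and 12 were higher in 6694c2 and 6419c5 but lower in both other lines (background 8.8%).

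**Figure D1:**
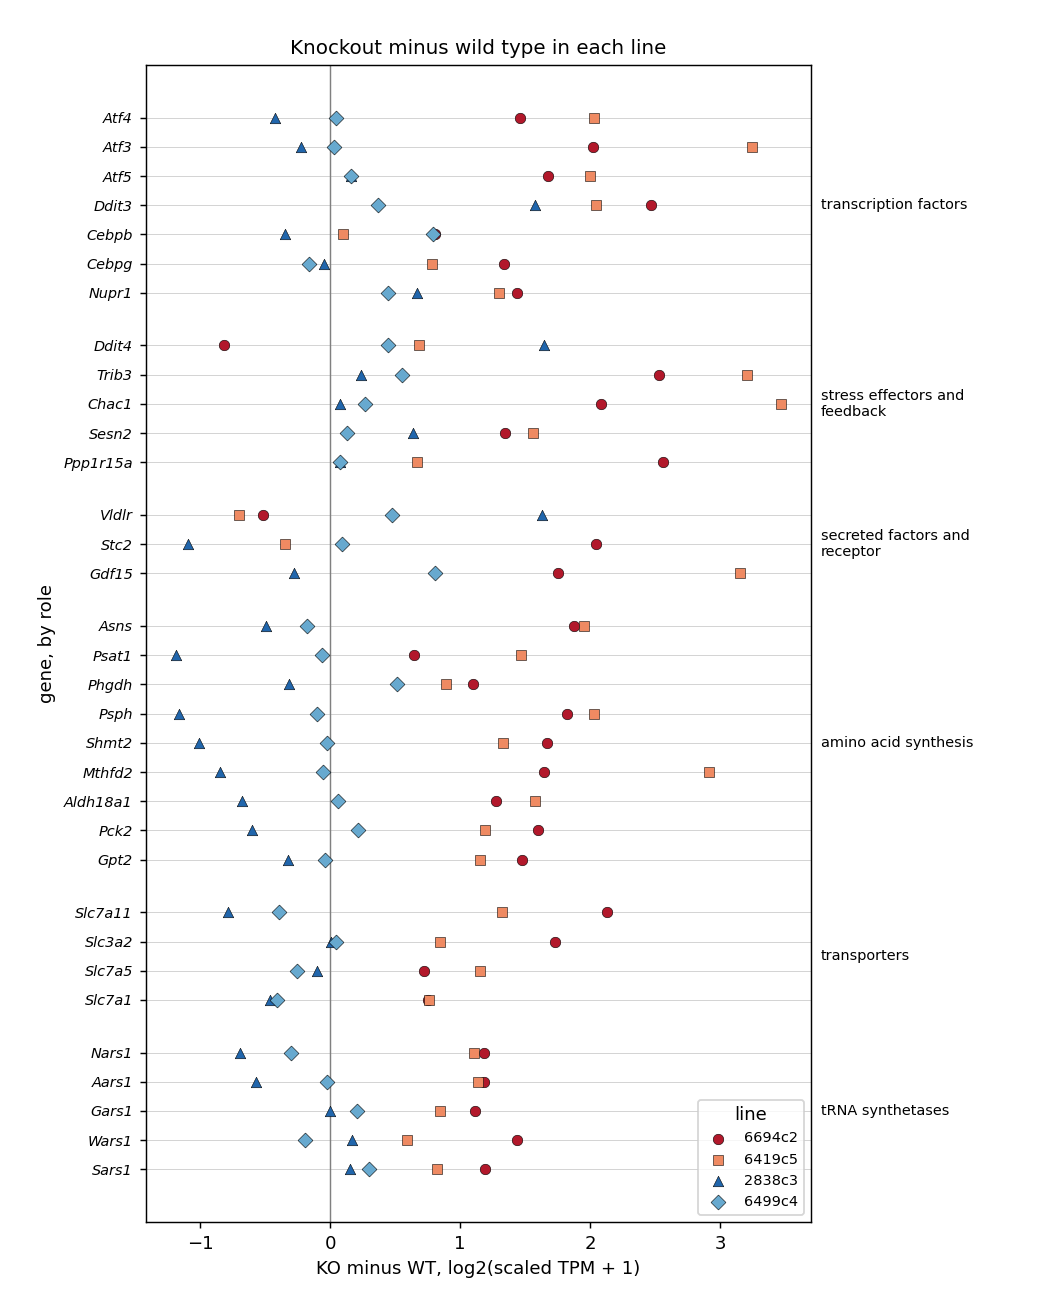
Difference between the KO and the WT library, in log2(scaled TPM + 1), for each of the 33 genes (rows, by role) in each line (symbols), with 1 library per genotype and no error bars. For 29 genes both red symbols (6694c2 and 6419c5) lie to the right of both blue ones (2838c3 and 6499c4), and for Vldlr they lie to the left.

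The pair of lines was tested with limma, with the cell line as a block and the KO difference fitted within each pair, and Benjamini-Hochberg adjustment covered all 12900 genes. In 6694c2 and 6419c5, 3 of the 33 genes passed an adjusted p of 0.05 and all rose: Trib3, Asns and Atf5 (background 0.147% in either direction, 0.14% higher). At an unadjusted p under 0.05, 29 of 33 were higher and 0 lower (background 8.64%, of which 3.98% higher and 4.67% lower). In 2838c3 and 6499c4, limma called 0 of 33 (background 0%), and at an unadjusted p under 0.05 it found 4 higher, namely Ddit3, Nupr1, Ddit4 and Vldlr (background 5.5%), and 1 lower, Slc7a1 (background 4.77%, and 10.3% either way). The direction of that balance depended on the scaling: 3 were higher and 5 lower with the deposited TPM, and 3 higher and 4 lower with structural RNA left out. Without 6499c4, 5 were higher and 6 lower. Over all 4 lines limma called 0 of 33 (background 0%), and 9 genes were higher and 0 lower before adjustment (background 4.93%, of which 2.13% higher and 2.8% lower). The difference of the KO effect between the pairs, tested directly by limma, also called 0 of 33 after adjustment (background 0.00775%). At an unadjusted p under 0.05 that difference was positive for 29 genes (background 4.97%) and negative for 1, Vldlr (background 6.75%). The KO minus WT differences of the pairs did not overlap for 30 of the 33 genes, 29 with 6694c2 and 6419c5 above (background 21.7%) and 1 below (background 24.3%). The fit has 2 residual degrees of freedom before limma pools the variance over genes.

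The calls in 6694c2 and 6419c5 need both lines. Without 6694c2 the limma adjusted p was 0.10 for Trib3, 0.545 for Asns and 0.466 for Atf5, and without 6419c5 it was 0.238, 0.395 and 0.420, the lone line then being assumed to vary like the others. With the deposited TPM unscaled, the limma adjusted p was 0.0314 for Trib3, 0.0576 for Asns and 0.0799 for Atf5. With structural RNA left out it was 0.0339, 0.0701 and 0.0714 for the same genes, at log2 differences of 2.85, 1.89 and 1.81. With no mean-variance trend it was 0.0220, 0.0665 and 0.0679. Without the filter on low values it was 0.283 or more for all 3, and without the line as a block 0 of 33 were called.

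Atf4 mRNA, the source of the factor that gives the response its name (ENSMUSG00000042406, chromosome 15, plus strand), was among the more abundant of these transcripts. In 6694c2 it stood at 712 scaled TPM before and 1965 after knockout, and the same pair of values was 199 and 816 in 6419c5, 703 and 524 in 2838c3 and 295 and 303 in 6499c4. The KO library was thus 2.76-fold and 4.10-fold above its parent in the first pair, and at 0.746 and 1.03 of it in the other. The limma estimate for 6694c2 and 6419c5 was a log2 difference of 1.75 (95% interval 1.17 to 2.32), with an adjusted p of 0.087. The KO library of 6694c2 was the highest of all 8 and the WT library of 6419c5 the lowest, and the parents spanned a 3.57-fold range, wider than the 2.76-fold difference within 6694c2. Atf4 protein depends on translation, which these data do not measure.

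Atf5, a close relative of Atf4 that is translated under the same control and serves the mitochondrial stress response (ENSMUSG00000038539, chromosome 7, minus strand), rose in 6694c2 and 6419c5. It went from 205 to 654 scaled TPM in 6694c2 and from 72.5 to 293 in 6419c5, but stood at 114 and 127 in 2838c3 and 69.6 and 77.9 in 6499c4. The limma log2 difference was 1.84 with an SE of 0.19 (adjusted p = 0.0323) in the first pair. The difference between the pairs was 1.67 (95% interval 1.03 to 2.32, limma adjusted p = 0.19).

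Ddit3 encodes CHOP, the C/EBP-like factor that Atf4 induces under lasting stress. Its WT and KO levels were 31.3 and 177 scaled TPM in 6694c2, 23.4 and 100.0 in 6419c5, 13.7 and 42.8 in 2838c3 and 21.9 and 28.6 in 6499c4. Unlike Atf4, it was higher in the KO library of every line, 3.12-fold in 2838c3 and 1.30-fold in 6499c4. The limma difference between the pairs was 1.29 with a 95% interval of 0.24 to 2.33 and an adjusted p of 0.39. Nupr1, a small stress-induced chromatin protein, followed the same order, at 2.75-fold, 2.49-fold, 1.60-fold and 1.37-fold in 6694c2, 6419c5, 2838c3 and 6499c4.

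Atf3, an Atf4 target that also answers other stress signals, stood at 15.0 and 64.2 scaled TPM in 6694c2 and at 24.0 and 235 in 6419c5. In 2838c3 it stood at 18.6 and 15.7, and in 6499c4 at 11.2 and 11.5. Its limma adjusted p in the first pair was 0.052, with a log2 difference of 2.63 and an SE of 0.31. Of the C/EBP partners, Cebpg was 2.59-fold and 1.76-fold higher in the KO libraries of 6694c2 and 6419c5 and at 0.967 and 0.884 of the parent in the others. Cebpb kept no such order, with KO libraries at 1.76-fold, 1.07-fold, 0.782-fold and 1.75-fold of the parent in 6694c2, 6419c5, 2838c3 and 6499c4, and it was 1 of the 3 genes whose pairs overlapped, with Ddit4 and Stc2.

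**Figure D2:**
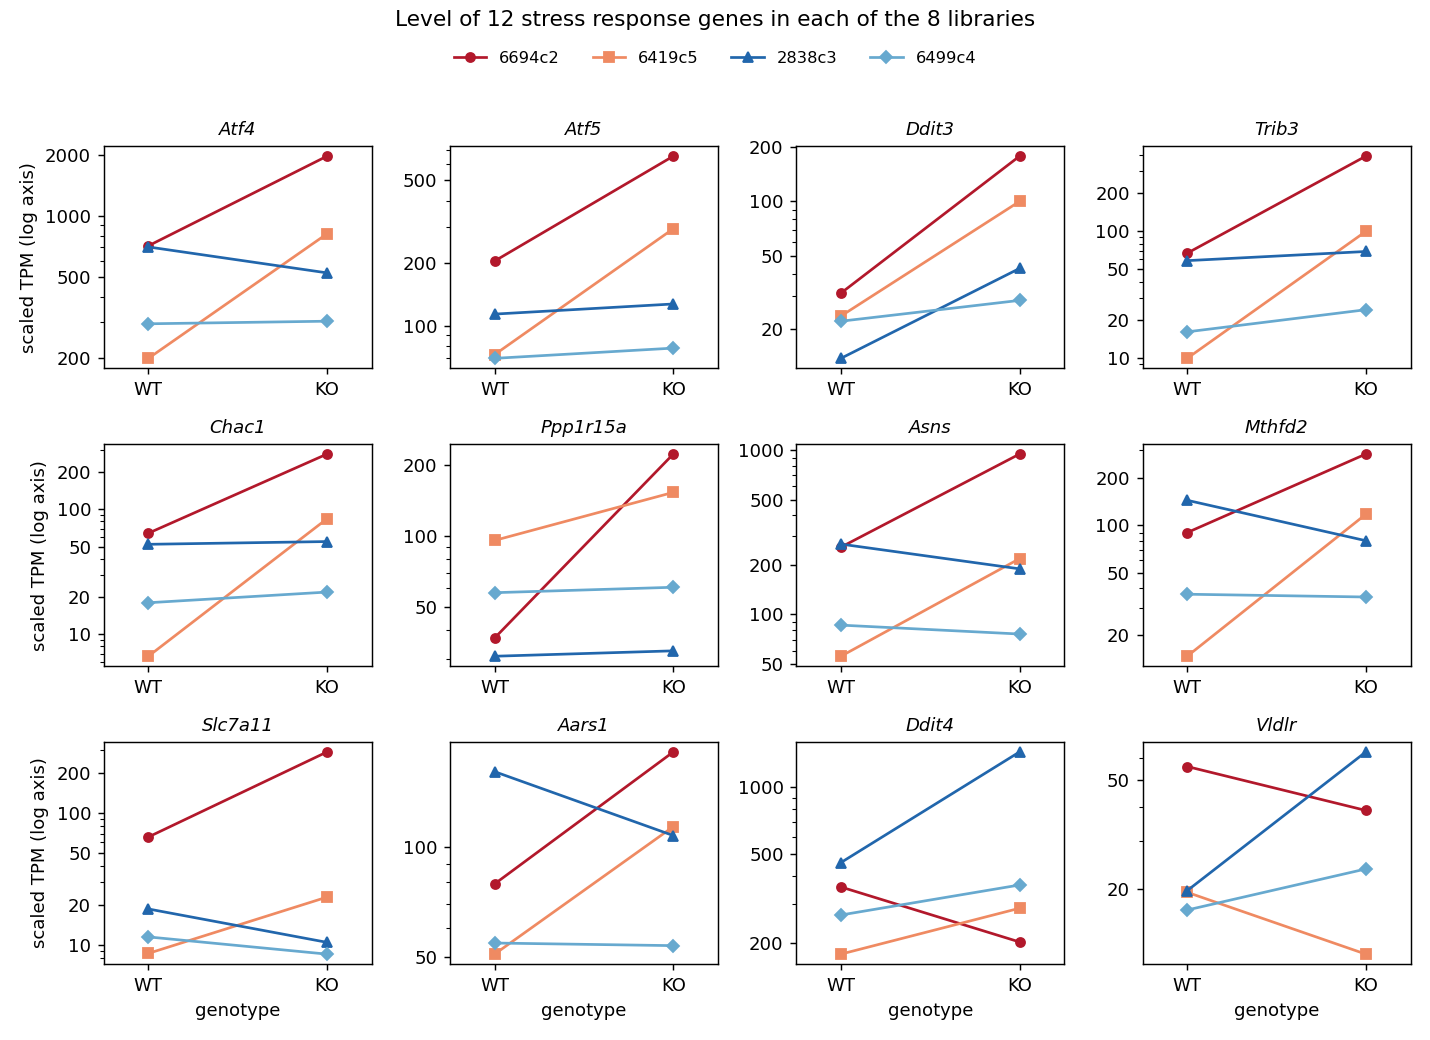
Scaled TPM (log axis, its range set per panel) of 12 genes in the WT and the KO library of each line, 1 library per point, with a line joining the parent and its KO culture. The lines of Trib3 go from 67.2 to 393 in 6694c2 and from 9.94 to 100 in 6419c5, while Ddit4 and Vldlr are highest in the KO library of 2838c3.

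Among the effectors and feedback regulators, Trib3, a pseudokinase that binds Atf4 and dampens it (ENSMUSG00000032715, chromosome 2, minus strand), went from 67.2 to 393 scaled TPM in 6694c2 and from 9.94 to 100 in 6419c5. It stood at 58.7 and 69.4 in 2838c3 and at 16.1 and 24.1 in 6499c4. Trib3 thus rose 5.84-fold and 10.1-fold in the first pair, with a limma log2 difference of 2.87, an SE of 0.23 and an adjusted p of 0.0125. The difference between the pairs was 2.47 with a 95% interval of 1.69 to 3.25 and an adjusted limma p of 0.12.

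Chac1, which degrades glutathione, stood at 64.4 and 277 scaled TPM in 6694c2, 6.68 and 84.0 in 6419c5, 52.5 and 55.2 in 2838c3 and 17.9 and 21.8 in 6499c4. Its 12.6-fold difference in 6419c5 was the largest of any member in any line, from the lowest parental level of the 4. The log2 differences were 2.09 and 3.47 in the first pair, with a limma SE of 0.33 and an adjusted p of 0.053. Sesn2, a sestrin that restrains the growth kinase mTORC1, was 2.65-fold and 3.13-fold higher in 6694c2 and 6419c5 and 1.59-fold and 1.10-fold in 2838c3 and 6499c4. Ppp1r15a (GADD34), the phosphatase subunit that reverses eIF2 phosphorylation, was 37.0 and 223 in 6694c2 but 95.9 and 153 in 6419c5, a 6.03-fold against a 1.60-fold difference, and 1.05-fold in both other lines.

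Ddit4 (REDD1), another brake on mTORC1 that is also induced by low oxygen, did not follow the group. Its WT and KO levels were 358 and 203 scaled TPM in 6694c2, 179 and 287 in 6419c5, 460 and 1442 in 2838c3 and 268 and 365 in 6499c4. The KO library of 2838c3 was far above the other 7, and 6694c2 was the line in which Ddit4 was lower after knockout.

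The secreted factors and the receptor had no common pattern. Gdf15, a stress cytokine that acts on the brain stem, was 27.0 and 93.3 scaled TPM in 6694c2, 8.99 and 87.9 in 6419c5, 19.6 and 15.9 in 2838c3 and 14.1 and 25.4 in 6499c4, with a limma adjusted p of 0.14 in the first pair. Stc2, a secreted stanniocalcin, separated the lines more than the genotypes: it was near 100 in 6499c4 (99.9 and 107) and 6419c5 (98.2 and 77.1), and 5.73 and 2.15 in 2838c3, with 7.74 and 35.2 in 6694c2. Stc2 differed between the lines by the limma F-test (adjusted p = 0.012). Vldlr, a lipoprotein receptor, went against most other members, at 55.9 and 38.7 in 6694c2, 19.5 and 11.6 in 6419c5, 19.8 and 63.2 in 2838c3 and 16.8 and 23.7 in 6499c4. Its limma difference between the pairs was -1.66 (95% interval -2.66 to -0.66, adjusted p = 0.36).

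All 9 enzymes of the amino acid synthesis group were higher in the KO libraries of 6694c2 and 6419c5 (background 46.9% and 48.8%). In each line 8 of 9 were so by at least 2-fold (background 2.64% and 1.91%). All 9 were lower in the KO library of 2838c3 (background 6500 of 12900 genes), 3 of them by at least 2-fold (background 6.46%). The 5th to 95th percentile of all genes in 2838c3 was wide, -1.14 to 1.06 on the log2 scale. The group's median difference was 1.60 in 6694c2, 1.47 in 6419c5, -0.68 in 2838c3 and -0.04 in 6499c4, against -0.03 to 0.01 over all genes tested.

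Asns, which makes asparagine (ENSMUSG00000029752, chromosome 6, minus strand), went from 257 to 945 scaled TPM in 6694c2 and from 55.7 to 218 in 6419c5. It stood at 268 and 189 in 2838c3 and at 86.1 and 76.0 in 6499c4. Asns rose by nearly the same factor in both lines of the first pair, 3.68-fold and 3.92-fold, although the parents differed (limma log2 difference 1.91, SE 0.19, adjusted p = 0.0283). Its difference between the pairs was 2.25 with a 95% interval of 1.61 to 2.90, and its limma adjusted p of 0.088 was the smallest of the 33 in that comparison.

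Of the serine and one-carbon enzymes, Phgdh, the first enzyme of serine synthesis and the most abundant of the group per length, stood at 613 and 1312 in 6694c2, 356 and 660 in 6419c5, 862 and 690 in 2838c3 and 387 and 554 in 6499c4. Psat1, the next enzyme, was at 1.56-fold, 2.79-fold, 0.438 and 0.956 of the parent in 6694c2, 6419c5, 2838c3 and 6499c4. Psph, the last, was at 3.69-fold, 4.51-fold, 0.432 and 0.928.

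Shmt2, which turns serine into glycine in mitochondria, was at 3.20-fold and 2.53-fold in the first pair and at 0.496 and 0.981 in the other. Mthfd2, the mitochondrial folate enzyme after it, stood at 90.0 and 284 scaled TPM in 6694c2, 14.7 and 118 in 6419c5, 145 and 79.9 in 2838c3 and 36.5 and 35.0 in 6499c4. Its difference in 6419c5, 2.92 on the log2 scale, was the widest of the 9 enzymes in any line. Aldh18a1 (proline synthesis), Pck2 (mitochondrial phosphoenolpyruvate) and Gpt2 (alanine) were between 2.27-fold and 3.04-fold higher in 6694c2 and 6419c5, and at 0.623 to 0.796 of the parent in 2838c3.

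**Figure D3:**
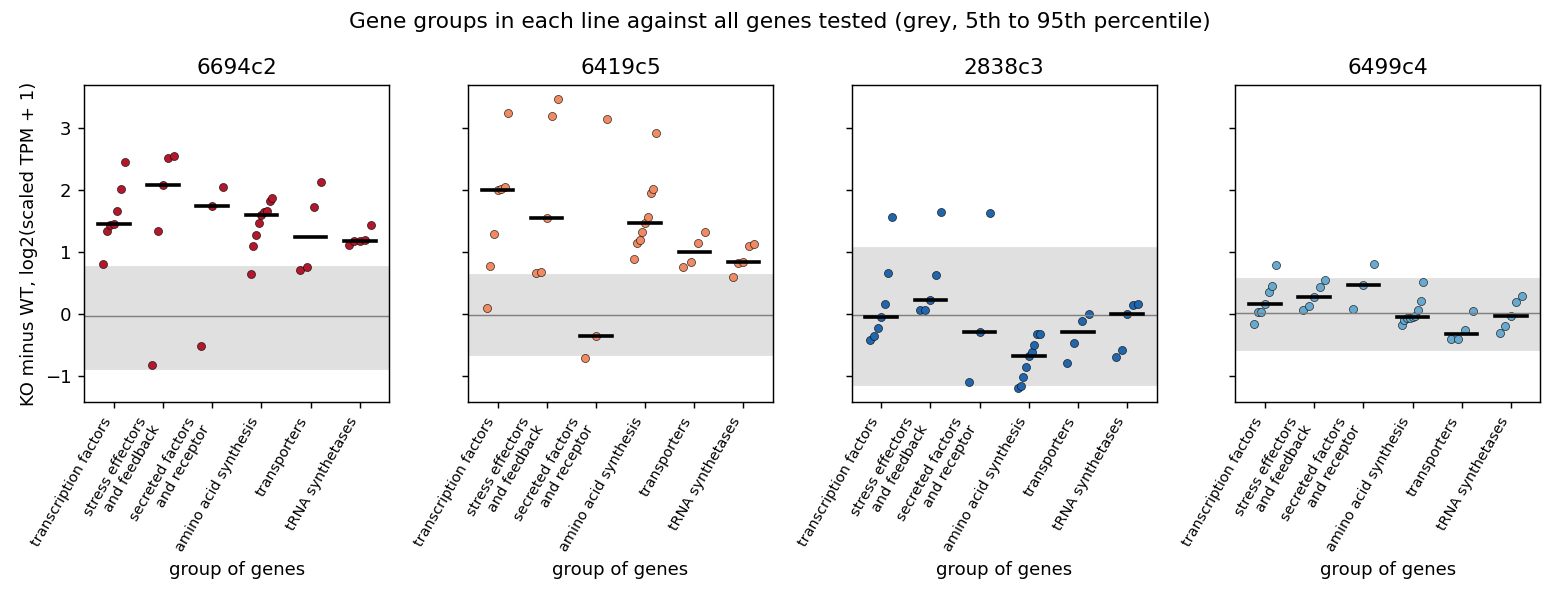
KO minus WT difference, in log2(scaled TPM + 1), of every member (points) by role in each line, with the group median (black bar) and the 5th to 95th percentile of all 12900 genes tested (grey). In 6694c2 and 6419c5 the medians of the synthesis enzymes, 1.60 and 1.47, stand above the grey band, and in 2838c3 and 6499c4 all 6 group medians lie inside it.

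All 4 amino acid transporters were higher in the KO libraries of 6694c2 and 6419c5 (background 46.9% and 48.8%). Slc7a11, the cystine importer, stood at 65.9 and 291 scaled TPM in 6694c2, 8.63 and 23.1 in 6419c5, 18.7 and 10.5 in 2838c3 and 11.5 and 8.52 in 6499c4. The 2 libraries of 6694c2 were therefore above the other 6, and Slc7a11 differed between the lines by the limma F-test (adjusted p = 0.031). Slc7a11 is also a target of the antioxidant factor NRF2, whose genes are given below. Slc3a2, the heavy chain shared by Slc7a11 and Slc7a5, stood at 328 and 1090 in 6694c2 and 150 and 271 in 6419c5. Its KO libraries were at 1.01-fold and 1.03-fold of the parent in 2838c3 and 6499c4. Slc7a5, the leucine carrier, was at 1.65-fold and 2.25-fold in 6694c2 and 6419c5 and at 0.930 and 0.834 in the others, and it too differed between the lines (limma F-test, adjusted p = 0.024). Slc7a1, the arginine carrier, was at 1.70-fold and 1.73-fold in the first pair and at 0.719 and 0.744 in the other. Its limma difference between the pairs was 1.20 with a 95% interval of 0.58 to 1.81 (adjusted p = 0.30).

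The 5 tRNA synthetases had the lowest group median in 6694c2, 1.19. There all 5 were at least 2-fold higher in the KO library (background 2.64%), between 2.17-fold (Gars1) and 2.72-fold (Wars1). In 6419c5 the range was 1.52-fold (Wars1) to 2.23-fold (Aars1). In 2838c3 they lay between 0.618 (Nars1) and 1.12 (Wars1) of the parent and in 6499c4 between 0.810 (Nars1) and 1.23 (Sars1). Aars1, the alanyl-tRNA synthetase whose promoter holds both motif copies, stood at 79.3 and 182 in 6694c2, 51.0 and 114 in 6419c5, 160 and 107 in 2838c3 and 54.7 and 53.8 in 6499c4. For all 5 the limma adjusted p of the difference in 6694c2 and 6419c5 was between 0.19 and 0.37.

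The parents themselves carried unlike amounts of these mRNAs, and not along the T-cell classes. The WT libraries of 6694c2 and 2838c3 were both above those of 6499c4 and 6419c5 for 24 of 33 members (72.7%, against 23.3% of all genes tested), among them Atf4, Trib3, Chac1, Asns and Slc7a11. The WT library of 6419c5 was the lowest parent for 20 members (60.6%, against 27.5% of all genes tested) and that of 2838c3 the highest for 16 (48.5%, against 25.7%). The ratio of the highest to the lowest parent was 9.82 for Mthfd2, 9.64 for Chac1, 7.64 for Slc7a11 and 6.76 for Trib3, and 1.53 for Sesn2. Stc2 reached 17.4, with 6499c4 and 6419c5 above the others. The limma F-test on the lines used WT and KO libraries together with a common KO difference, so it does not test the parents alone. By this F-test 3 of 33 members differed between the lines after adjustment, Stc2, Slc7a11 and Slc7a5 (9.09%, below the background of 17.1%). At an unadjusted p under 0.05, 18 did (54.5%, background 36.4%).

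**Figure D4:**
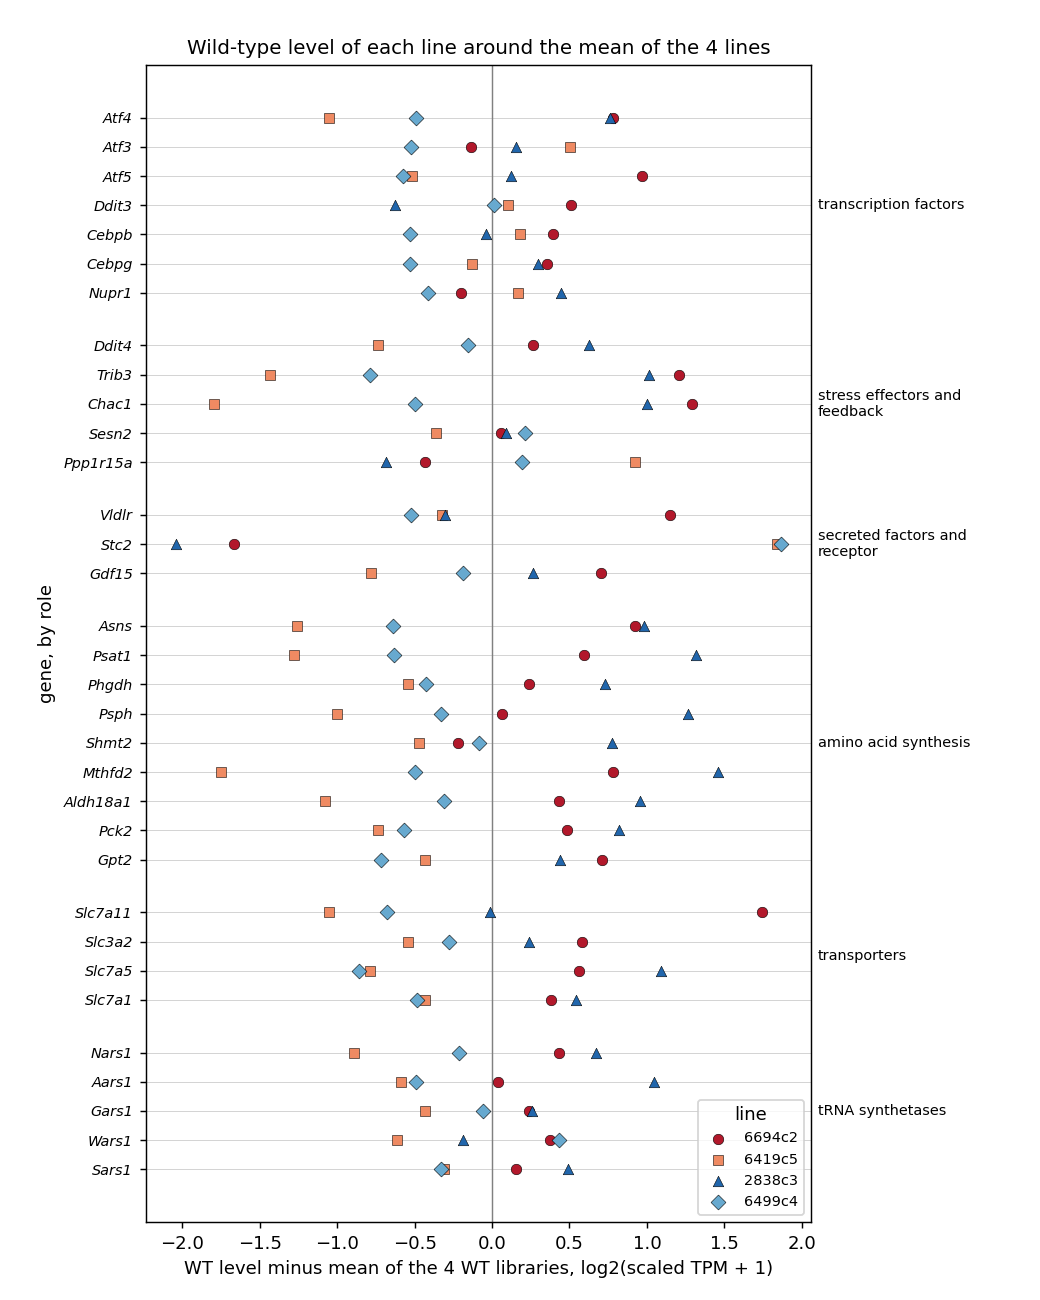
Level of each member in the WT library of each line, as log2(scaled TPM + 1) minus the mean of the 4 WT libraries. The low parent 6419c5 (squares) lies to the left of the other 3 for 20 genes, and Stc2 has the widest spread, with 6499c4 and 6419c5 on the right.

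The KO library of 6694c2 held the highest level of all 8 libraries for 27 members (81.8%, against 16.3% of all genes tested). The KO library of 6419c5, from the lowest parent, was below that of 6694c2 for 29 members (87.9%, against 49.1% of all genes tested). Both KO libraries stood above all 4 WT libraries for 15 members (45.5%, against 5.05% of all genes tested), including Atf4, Atf5, Ddit3, Trib3, Chac1 and Gdf15. For Asns and 6 of the other synthesis enzymes the KO library of 6419c5 stayed below the WT library of 2838c3.

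Genes around the pathway were read from further lists. For the kinases and the eIF2 machinery the list's median difference was 0.09, 0.08, -0.13 and -0.05 in 6694c2, 6419c5, 2838c3 and 6499c4, and limma called 0 of 17 in any comparison of genotypes. Before adjustment 2 were higher and 1 lower in 6694c2 and 6419c5 (background 3.98% and 4.67%). The lower one was the kinase of double-stranded RNA, Eif2ak2 (PKR), at 17.9 and 9.89 scaled TPM in 6694c2, 25.8 and 19.8 in 6419c5, 17.9 and 24.3 in 2838c3 and 21.1 and 20.1 in 6499c4 (limma adjusted p = 0.566 in the first pair). The heme-sensing kinase Eif2ak1 (HRI) stood at 26.8 and 21.7 in 6694c2 and 40.6 and 38.8 in 6419c5. The ER kinase Eif2ak3 (PERK) stood at 14.5 and 17.1 scaled TPM in 6694c2 and 17.8 and 18.9 in 6419c5, and the amino acid sensor Eif2ak4 (GCN2) at 10.8 and 8.22 and at 13.2 and 12.7. The members with the widest difference between the pairs were Eif2s2, a subunit of eIF2 (1.21, limma adjusted p = 0.29), which was 1.93-fold and 1.98-fold higher in the KO libraries of 6694c2 and 6419c5, and Eif2b4, a subunit of its exchange factor (0.83, limma adjusted p = 0.44). Kinase activity is not visible in mRNA.

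Of 25 other known Atf4 targets 23 could be tested, and their medians were 0.83, 0.63, 0.05 and 0.10 in 6694c2, 6419c5, 2838c3 and 6499c4. In 6694c2 and 6419c5 limma called 1 of 23 (background 0.147%), the glycine transporter Slc6a9, which rose (log2 difference 1.76, adjusted p = 0.041) and was named after its value was seen. Its adjusted p was 0.0884 with structural RNA left out and 0.0806 with the deposited TPM. Before adjustment, 15 of the 23 were higher and 0 lower in 6694c2 and 6419c5 (background 3.98% and 4.67%). The widest differences between the pairs were those of the cysteine-making enzymes Cth (2.88, limma adjusted p = 0.21) and, in the opposite direction, Cbs (-1.99, adjusted p = 0.36). Cth stood at 13.1 and 141 scaled TPM in 6694c2, 19.0 and 74.8 in 6419c5, 46.5 and 34.7 in 2838c3 and 17.1 and 16.0 in 6499c4.

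The other cytosolic tRNA synthetases had medians of 0.83, 0.40, -0.33 and -0.06. In 6694c2 and 6419c5 limma placed 9 of 15 higher and 0 lower before adjustment (background 3.98% and 4.67%) and called 0 after it. Tars1 and Mars1, the threonyl and methionyl enzymes, had the widest difference between the pairs, 1.40 each (limma adjusted p = 0.26 and 0.30). The mitochondrial synthetases had medians of 0.20, 0.16, -0.05 and 0.09. Rars2 among them was at 1.19-fold and 1.17-fold of the parent in 6694c2 and 6419c5 and at 0.593 and 0.717 in 2838c3 and 6499c4. Its difference between the pairs was 0.82 (limma adjusted p = 0.38). In 6694c2 and 6419c5, 1 of the 17 was at an unadjusted limma p under 0.05 (background 8.64%). That gene, Lars2, rose 11.8-fold and 12.1-fold in 6694c2 and 6419c5 (limma log2 difference 3.55, adjusted p = 0.0037), by nearly the same factor as 46.4 became 547 and 35.8 became 433 scaled TPM. The structural RNA Rmrp was highest in the same KO libraries, and whether structural RNA adds reads to Lars2 was not tested. With structural RNA left out the limma log2 difference of Lars2 was 3.52 (adjusted p = 0.0069). That setting drops whole genes and keeps all that was assigned to Lars2, so it cannot tell. Without 6694c2 its adjusted p was 0.0891 and without 6419c5 0.102.

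The ER chaperones of the Atf6 and Xbp1 arms had medians of 0.92, 0.41, -0.31 and -0.02. In 6694c2 and 6419c5 limma called 0 of 14, and 10 were higher before adjustment (background 3.98%). Hspa5 (BiP) stood at 736 and 2813 scaled TPM in 6694c2, 360 and 722 in 6419c5, 791 and 489 in 2838c3 and 355 and 346 in 6499c4, and Manf had a difference between the pairs of 1.62 (limma adjusted p = 0.33). The NRF2 targets had medians of 1.15, 0.28, -0.56 and 0.06, with 0 of 10 called and 6 higher before adjustment in 6694c2 and 6419c5 (background 3.98%). Among them Nqo1 stood at 118 and 325 scaled TPM in 6694c2, 6.44 and 19.2 in 6419c5, 138 and 24.0 in 2838c3 and 1.23 and 0.755 in 6499c4, so that it was 2.75-fold and 2.98-fold higher in both lines of the first pair. Srxn1 stood at 94.8 and 289 in 6694c2, 25.8 and 36.8 in 6419c5, 55.6 and 30.5 in 2838c3 and 31.5 and 38.4 in 6499c4. The p53 targets, some of which answer to the same stresses as Gdf15 and Sesn2, had medians of 0.10, 0.11, 0.42 and -0.14. Of these, 0 of 9 were called in any comparison of genotypes. Cdkn1a, the cell cycle inhibitor p21, was 87.0 and 93.4 in 6694c2, 13.8 and 42.8 in 6419c5, 41.1 and 210 in 2838c3 and 10.2 and 34.1 in 6499c4, higher in the KO library of every line (limma adjusted p over 4 lines 0.814). Trp53inp1 was 18.0 and 17.9, 9.34 and 8.18, 3.50 and 19.8, and 9.46 and 7.52 in the same order.

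The other one-carbon genes had medians of -0.09, 0.14, -0.61 and -0.20, with 0 of 10 called and 5 lower before adjustment in 2838c3 and 6499c4 (background 4.77%). Tyms, which makes thymidylate, was 7.98 and 5.64 in 6694c2, 6.43 and 8.57 in 6419c5, 21.8 and 2.64 in 2838c3 and 8.78 and 7.32 in 6499c4. The glycine-cleaving Gldc was 95.8 and 114, 28.6 and 37.7, 125 and 38.9, and 30.1 and 22.5 in the same order. The mitochondrial chaperones and proteases had medians of 0.63, 0.10, -0.20 and -0.22, and Hspd1 and Hspe1, the mitochondrial chaperonins, had KO minus WT differences of 0.94 and 0.62 on the log2 scale in 6694c2, 0.10 and 0.07 in 6419c5, -1.28 and -1.18 in 2838c3 and -0.56 and -0.22 in 6499c4.

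**Figure D5:**
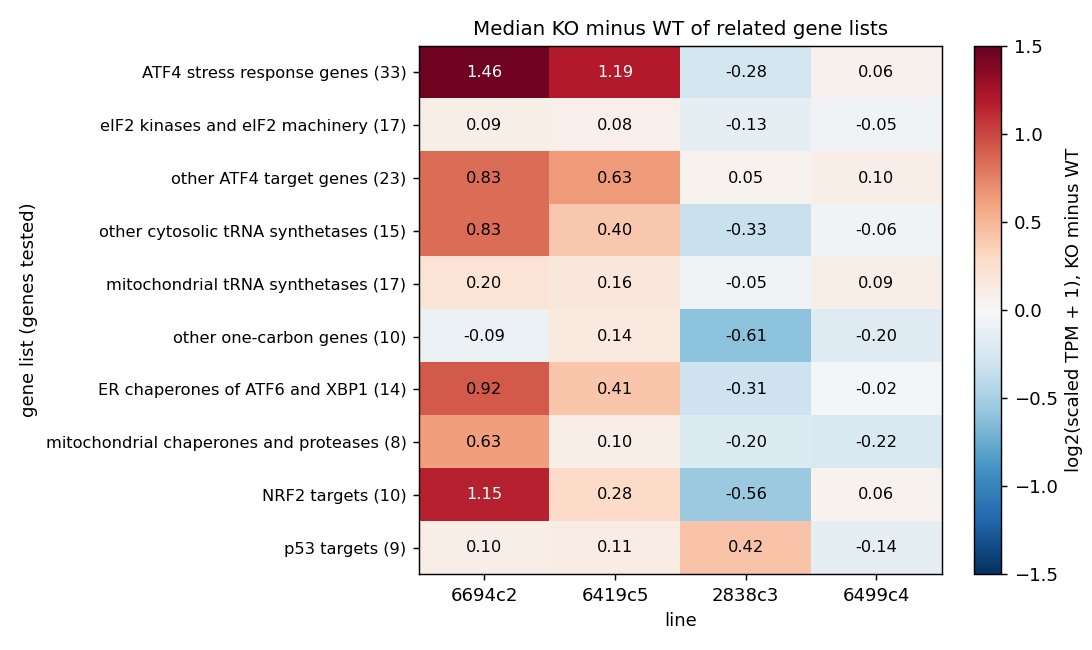
Median KO minus WT difference, in log2(scaled TPM + 1), of the 33 stress response genes and of 9 related lists (rows, genes tested in brackets) in each line (columns). The 33 genes have the largest medians in 6694c2 and 6419c5, 1.46 and 1.19, while the kinases and eIF2 machinery lie within 0.13 of 0 in all 4 lines.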

How the data were processed

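The authors deposited 1 table of TPM for 8 libraries of polyadenylated RNA, in which each column sums to 1000000. The submitters' processing notes name cutadapt 5.1, STAR 2.7.11b, featureCounts 2.1.1, DESeq2 2.11.40.8 and the mm39 build. The sources used here do not give how the TPM were computed, and spike-in controls were not used. Gene names came from GENCODE vM39, which matched 45505 of 49315 identifiers and left 3810 unnamed.

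Each library was divided by the median ratio to the geometric mean over 10950 genes at 1 TPM or more in all libraries. Genes with at least 1 TPM in at least 4 libraries were kept, 12900 in all, and all 33 members passed. The model, fitted with limma 3.58.1 under R 4.3.3, took log2(scaled TPM + 1) with a mean-variance trend and the cell line as block, and Benjamini-Hochberg adjustment at 0.05. Fold values are ratios of scaled TPM, while log2 differences carry the pseudocount of 1 and understate low genes. WT and KO libraries pair because they come from the same line, and they deviated together from their genotype means (r of 0.663, 0.752, 0.417 and 0.79 in 6694c2, 6419c5, 2838c3 and 6499c4). The fit was also run on simulated data with independent normal noise and an equal shift in the KO libraries of 6694c2 and 6419c5. That setting does not mimic KO effects that differ between lines, and its outcome is not given here. Tables and figures used Python 3.11.15, pandas 2.3.3, numpy 2.4.6 and matplotlib 3.10.9.

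Named genes are all members, C1galt1c1, Rmrp, Rpph1 and, of each related list, the 2 genes with the widest difference between the pairs. Eif2ak1, Eif2ak2, Eif2ak3, Eif2ak4 and Slc6a9 were added after their values were seen. The members, the lists and the comparison of the pairs were chosen with earlier results of these data known. Alternatives were other scalings, a pseudocount of 0.1, other filters, other variance settings, a fit without the line block, and leaving out each line.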

Additional observations from a re-analysis of the deposited data

Results flagged for a closer look

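Within each genotype, the highest or lowest of the 4 libraries was set against the other 3 for every member, 66 sets in all. Were the sets independent, chance alone would put about 1 in 20 apart. They share the same libraries, and the share over all genes is not given here, so the count below is descriptive. In 8 sets 1 library stood far from the rest. The KO library of 6694c2 was that library in 6 of them: Asns at 945 scaled TPM (others 76.0 to 218), Pck2 at 581 (107 to 188), Slc7a11 at 291 (8.52 to 23.1), Slc3a2 at 1090 (187 to 271), Gars1 at 775 (336 to 404) and Wars1 at 358 (99.7 to 120). The KO library of 2838c3 stood apart for Ddit4, at 1442 against 203 to 365. The WT library of 6694c2 did so for Vldlr, at 55.9 against 16.8 to 19.8. The same KO library of 6694c2 held 12.5% of its TPM in identifiers without a name.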

How the results depend on the processing

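TPM keep no depth, so what counting error limits is not known here. Each pair holds 2 lines, and the 3 member calls rest on both. Of 96 recomputed group medians 94 moved by less than the residual spread; with deposited TPM those of transporters and tRNA synthetases in 6694c2 were 1.02 and 0.96. In 6694c2 and 6419c5 the main count of 19 genes was 3 with structural RNA left out, 0 without a filter, 6 with no replicate block (no line pairing), and 0 to 28 with a line left out. The 3 members called there were 1 with deposited TPM, with structural RNA left out and with no variance trend (Trib3 each time), 0 without a filter and with no replicate block, 5 with a TPM minimum of 5, and 0 to 5 with a line left out. Chac1 and Atf3 joined with that minimum, and Ddit3 and Psph without 2838c3 or 6499c4. The difference between the pairs called 1 gene, but 8 with quantile normalization, 5 with the TPM minimum, 0 with structural RNA left out, a pseudocount of 0.1, no filter or no replicate block, and 0 to 25 with a line left out; members called were 0 to 1, Psph without 6499c4. In 2838c3 and 6499c4 the TPM minimum gave 1 gene. The line F-test called 883 to 3685 genes with a line left out (1445 without 6694c2 and 909 without 6499c4), and 0 to 17 members; without a filter 0 members. Members at an unadjusted p under 0.05 with no replicate block numbered 4 over all lines (all genes 0.946%), 12 in 6694c2 and 6419c5 (1.43%), 1 in 2838c3 and 6499c4 (1.61%) and 5 for the difference (2.16%). In 2838c3 and 6499c4 they numbered 8 with deposited TPM (3 higher, 5 lower; all genes 11.5%) and 3 with no variance trend, a share below that of all genes (10.1%). With a line left out they numbered 4 to 23 over all lines (all genes 3.68% to 7.62%), then 22 to 30 (2.47% to 12.4%), 1 to 11 (4.08% to 21.5%) and 21 to 27 (3.98% to 22.5%) in the same order. Of single members, the difference in 6694c2 and 6419c5 turned for Ddit4 (0.68) and Stc2 (-0.34) without 6694c2. The difference between the pairs turned for Cebpb, to -0.12 without 6694c2 and -0.33 without 2838c3. The cause of these changes was not tested, other than fewer lines or another number of genes adjusted over.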
